A study of Mus musculus with 8 samples.

Results

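The Notch receptors, ligands and effectors described here were 10 genes of the 46406 entries in a deposited expression table. They were taken by gene symbol: the receptors Notch1, Notch2 and Notch3, the ligands Dll1, Dll3 and Jag1, the transcriptional effectors Hes1, Hes3 and Hes5, and the modulator Dtx1. Poly(A) RNA was sequenced from anterior neural progenitor cells (AntNPC), a culture model of early forebrain tissue made from mouse embryonic stem cells (mESC). All lines were grown in N2B27 medium for 3 days with bFgf at 10 ng/ml and then 2 days without it, and the WNT inhibitor Xav939 was present at 5 µM from day 2 to day 5. The 8 libraries comprised 4 of the wild-type (WT) mESC line E14, 2 of the line PE Lhx5(-109)-/- clone 1 and 2 of the line PE Lhx5(-109)-/- clone 2. Both clones lack a poised enhancer (PE) of the LIM homeobox gene Lhx5, removed from E14 with Cas9 and a pair of guide RNAs, and "null" below means the 4 libraries of both clones. Each null line is 1 clone and the WT line carries no clone label, so an effect of the deletion and an effect of clonal derivation cannot be told apart within 1 clone. The libraries are called biological replicates in the series' design, with no further word on separate cultures, so p-values measure the spread between these libraries.

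Notch receptors are cut at the membrane when a Delta or Jagged ligand on a neighbouring cell binds them, and the released intracellular part joins the DNA-binding protein RBPJ in the nucleus. In neural progenitors this turns on Hes genes, whose products repress proneural factors such as Neurog2 and keep the cells undifferentiated. Proneural factors in turn raise the Delta ligands, so levels of ligands and effectors are linked between neighbouring cells.

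Levels are in FPKM, fragments scaled by transcript length and by the mapped total of the library, and an order between genes rests on the lengths the authors used, which are not given here. Lhx5 stood at 15.0 to 17.5 FPKM in WT and at 0.854 to 1.90 FPKM in the null libraries. Summed FPKM of 10 anterior neural progenitor markers was 522.4 to 573.8 in WT, 475.7 to 530.0 in clone 1 and 445.4 to 464.8 in clone 2, and none of the 10 was under 1 FPKM in all libraries. This sum is mostly Otx2 and Sox2 (206.5 and 134.9 FPKM in WT), and single markers moved further: 4 were lower in clone 1, and 3 were higher and 5 lower in clone 2. Sox1, Nes and Cdh2 were lower in clone 1 and higher in clone 2, whereas in clone 2 Hesx1 stood at 16.6%, Rax at 19.6%, Pax6 at 37.4% and Lhx2 at 47.1% of the WT mean and passed as lower (genes other than Sox1 and Cdh2 were chosen after their values were seen). The part of these changes in those of the members was not tested. All 6 paraxial mesoderm, all 5 endoderm and all 4 endothelium markers were under 1 FPKM in every library. Clone 1 replicate 2 stood apart in RNA that carries no poly(A) tail: Rn7sk was at 250.2 FPKM there and at 8.05 to 28.4 FPKM in the other 7 libraries. Read totals per library are unknown, and no interval of counting error can be given. The libraries are of bulk cells, so fewer cells of a type and less RNA per cell cannot be told apart.

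All 10 members were above 1 FPKM in every library and were therefore among the 14521 genes tested. In WT (n = 4) the levels fell in the order Hes1 at 34.9 ± 1.20 FPKM (SD), Notch3 at 31.2 ± 0.542, Dll1 at 27.3 ± 1.28, Jag1 at 24.0 ± 1.08, Notch2 at 17.6 ± 0.371, Notch1 at 17.2 ± 0.391, Hes5 at 14.8 ± 2.45, Hes3 at 12.1 ± 2.29, Dtx1 at 4.83 ± 1.16 and Dll3 at 4.60 ± 0.337. Neighbours in this order overlapped for Notch2 with Notch1, Notch1 with Hes5, Hes5 with Hes3, and Dtx1 with Dll3, and the other neighbours were separate. The spread among WT libraries was widest for Dtx1 (coefficient of variation 23.9%), Hes3 (18.9%) and Hes5 (16.6%), reached 7.32% for Dll3 and lay between 1.74% and 4.68% for the other 6. Behind these levels stood the authors' mean WT reads of 7340 for Notch3, 5517 for Notch2 and 4421 for Notch1 at one end, and of 391 for Dtx1, 340 for Dll3 and 220 for Hes5 at the other.

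**Figure D1:**
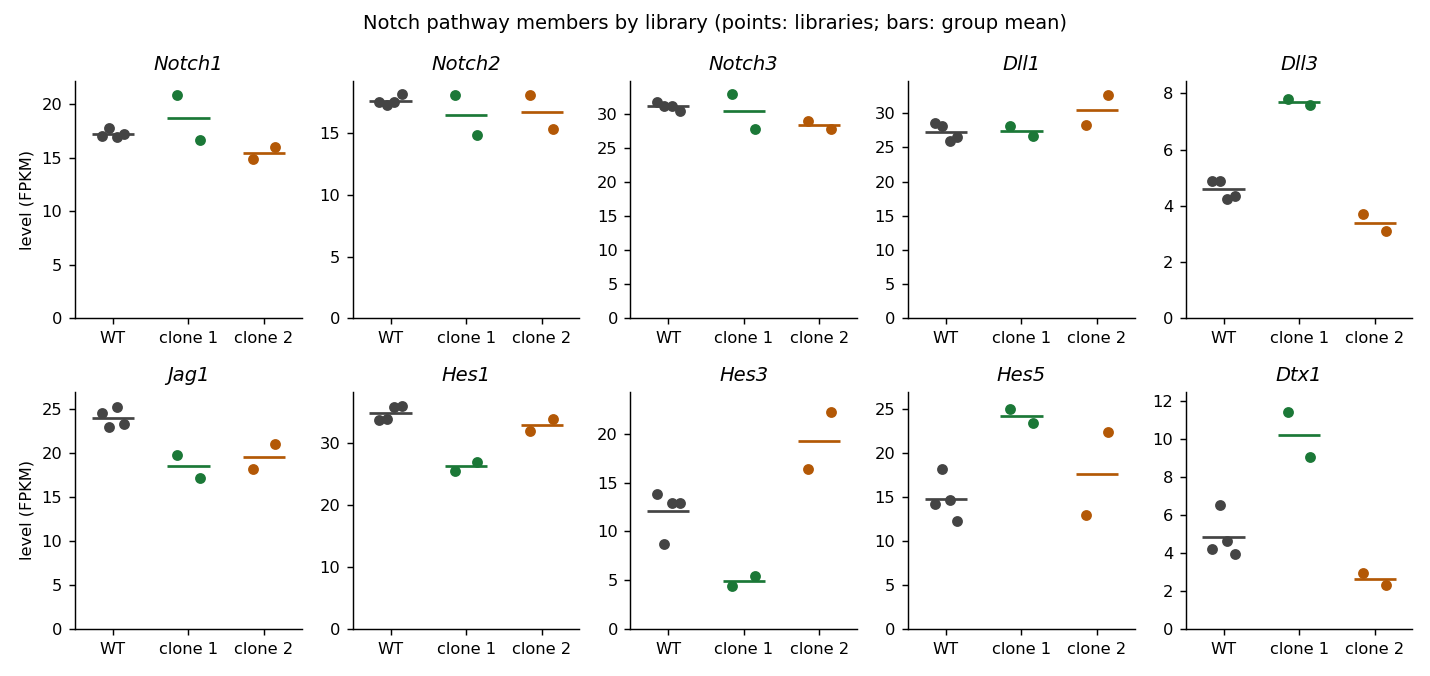
Level of each of the 10 members in FPKM (linear axes from 0) in the 4 WT, 2 clone 1 and 2 clone 2 libraries, with points for libraries and bars for group means. The receptors and Dll1 lie close to WT in both clones, Jag1 lies below WT in both, and Dll3 and Dtx1 lie above WT in clone 1 and below it in clone 2.

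Each clone was compared with WT to ask which members changed after the enhancer was lost, using limma on log2(FPKM + 1) with Benjamini-Hochberg adjustment over all genes tested and a threshold of 0.05. All log2 differences given below are differences of log2(FPKM + 1), in which the added 1 shrinks the fold of genes at low levels. In clone 1, 5 of 10 members passed: Dll3 and Dtx1 were higher, and Jag1, Hes1 and Hes3 were lower. In clone 2, 3 of 10 passed, all lower: Dll3, Jag1 and Dtx1. Of all genes tested, 15.6% passed in clone 1 (4.16% higher, 11.4% lower) and 14.0% passed in clone 2 (7.06% higher, 6.96% lower). The clone 1 split between higher and lower calls over all genes moved with scaling, from 26.7% higher to 50.5% higher when libraries were rescaled by their median ratio, and the same 5 members passed with the same direction under that rescaling. The median log2 fold change of the members was -0.02 in clone 1, beside -0.05 for all genes tested, and -0.10 in clone 2, beside 0.00. The median size of change regardless of direction was 0.38 in clone 1, beside 0.13 for all genes, and 0.18 in clone 2, beside 0.12. Both comparisons share the 4 WT libraries.

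**Figure D2:**
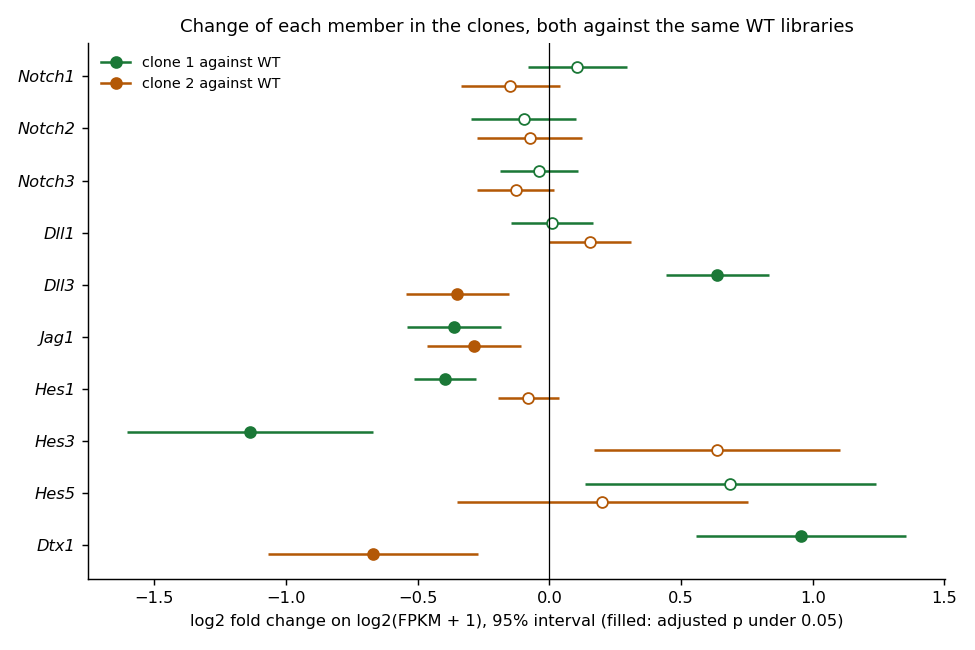
Log2 fold change of each member in clone 1 (green) and clone 2 (orange) against the same 4 WT libraries, on log2(FPKM + 1), with 95% intervals as lines and filled points where the limma adjusted p was under 0.05. Dll3 and Dtx1 pass on opposite sides of 0 in the clones, Jag1 passes below 0 in both, and no receptor passes in either.

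The 3 receptors, which carry the signal from the membrane to the nucleus, lay near their WT levels, and none passed in either clone. Notch1 was at 16.99, 17.80, 16.96 and 17.18 FPKM in WT, 20.81 and 16.63 in clone 1, and 14.89 and 16.02 in clone 2. The clone 1 libraries lay on either side of WT and the clone 2 libraries lay below it. Against WT, the log2 difference of Notch1 was 0.11 in clone 1 (95% interval -0.08 to 0.29, limma adjusted p = 0.409) and -0.15 in clone 2 (-0.34 to 0.04, adjusted p = 0.260). Notch2 differed by -0.10 in clone 1 (-0.30 to 0.10, adjusted p = 0.470) and by -0.07 in clone 2 (-0.27 to 0.12, adjusted p = 0.609). Notch3, at 30.5 to 31.8 FPKM in WT and 27.9 to 33.0 FPKM in the null libraries, differed by -0.04 in clone 1 (-0.19 to 0.11, adjusted p = 0.713) and by -0.13 in clone 2 (-0.28 to 0.02, adjusted p = 0.217). The lowest bound among these 6 intervals was -0.34 and the highest was 0.29.

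Of the ligands, Dll1 passed in neither clone, Jag1 was lower in both and Dll3 moved in opposite directions. Dll1, the Delta ligand that activates Notch between neural progenitors, was at 28.50, 28.19, 25.90 and 26.47 FPKM in WT, 28.11 and 26.73 in clone 1, and 28.28 and 32.71 in clone 2. Each clone overlapped WT, and both clone 2 libraries lay above both clone 1 libraries. Its log2 difference from WT was 0.01 in clone 1 (-0.15 to 0.16, limma adjusted p = 0.946) and 0.15 in clone 2 (-0.0024 to 0.31, adjusted p = 0.168).

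Jag1, the ligand of the Jagged class, was lower in both clones. It stood at 24.58, 22.98, 25.28 and 23.30 FPKM in WT, 19.82 and 17.20 in clone 1, and 18.14 and 21.00 in clone 2. All 4 null libraries lay below all 4 WT libraries. In clone 1 Jag1 fell to 77.0% of the WT mean (log2 difference -0.36, SE 0.079, limma adjusted p = 0.0196), and in clone 2 to 81.4% of it (log2 difference -0.29, adjusted p = 0.0452). The clones did not differ from each other in Jag1 beyond the threshold (difference 0.08, 95% interval -0.13 to 0.28, adjusted p = 0.539). The call in clone 1 was lost without clone 1 replicate 2 (adjusted p = 0.13), without WT replicate 1 (0.0524) or without WT replicate 3 (0.0556). In clone 2 it was lost without clone 2 replicate 1 (adjusted p = 0.231), without clone 2 replicate 2 (0.116), without each WT library in turn (0.0635 to 0.0988), with no filter on low values (0.0944) and without trend and robust moderation (0.0688).

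Dll3, an atypical Delta-like ligand that does not activate Notch on neighbouring cells, was higher in clone 1 and lower in clone 2. It stood at 4.893, 4.883, 4.257 and 4.362 FPKM in WT, 7.801 and 7.595 in clone 1, and 3.691 and 3.105 in clone 2. No library of any group overlapped another group. Dll3 rose by 0.64 on the log2 scale in clone 1 (SE 0.086, limma adjusted p = 0.00437), to 167% of the WT mean. It fell by 0.35 in clone 2 (SE 0.086, adjusted p = 0.0318), to 73.9% of it. Clone 2 was 0.99 below clone 1 (log2 difference -0.99, SE 0.099, adjusted p = 0.00038). The clone 1 call held when any single library was left out. The clone 2 call was lost without clone 2 replicate 2 (adjusted p = 0.300), without each WT library in turn (0.0501 to 0.0666) and with no filter on low values (0.0605).

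The Hes genes encode basic helix-loop-helix repressors, and each of the 3 had its own pattern. Hes1, the member with the highest WT level, was at 33.72, 33.92, 35.85 and 35.94 FPKM in WT, 25.55 and 26.90 in clone 1, and 31.96 and 33.91 in clone 2. Clone 1 lay below every other library, and clone 2 overlapped WT. Hes1 fell by 0.40 in clone 1 (SE 0.051, limma adjusted p = 0.00381), to 75.2% of the WT mean. In clone 2 it differed by -0.08 (95% interval -0.20 to 0.04, adjusted p = 0.329). The clones differed by 0.32 (adjusted p = 0.00366), with clone 2 higher.

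Hes3, which is known from the midbrain-hindbrain boundary of the embryo, had the largest difference between the clones of the 10 members. It was at 13.87, 8.744, 12.92 and 12.88 FPKM in WT, 4.357 and 5.466 in clone 1, and 16.35 and 22.27 in clone 2. All 3 groups were separate. Hes3 fell by 1.14 in clone 1 (SE 0.198, limma adjusted p = 0.0141), to 40.6% of the WT mean. In clone 2 it was at 160% of the WT mean, a log2 difference of 0.64 that did not pass (unadjusted p = 0.0147, adjusted p = 0.0763). Clone 2 was higher than clone 1 by 1.77 (SE 0.229, adjusted p = 0.00145). The clone 1 call was lost when either clone 1 library was left out (adjusted p = 0.0511 without replicate 1 and 0.0675 without replicate 2), which leaves 1 library in that group.

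Hes5, a direct target of Notch signalling in neural progenitors, did not pass in either clone. It was at 14.18, 18.14, 14.68 and 12.26 FPKM in WT, 25.04 and 23.45 in clone 1, and 12.90 and 22.37 in clone 2. The clone 1 libraries lay above all WT libraries, and the clone 2 libraries lay far apart, one within the WT range and one above it. Clone 1 was at 164% of the WT mean, with a log2 difference of 0.69 (95% interval 0.13 to 1.24, unadjusted p = 0.0223, limma adjusted p = 0.0927). Without clone 2 replicate 1 or replicate 2 in the shared estimate of the spread, the same difference passed (adjusted p = 0.0208 in both cases). In clone 2 the difference was 0.20 (adjusted p = 0.603).

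Dtx1, a Deltex family ubiquitin ligase that modulates Notch receptors and is itself raised by Notch signalling in several tissues, showed the same order of groups as Dll3. It was at 4.205, 6.512, 4.642 and 3.966 FPKM in WT, 11.43 and 9.022 in clone 1, and 2.940 and 2.318 in clone 2. All 3 groups were separate. In clone 1 Dtx1 rose to 212% of the WT mean (log2 difference 0.96, SE 0.174, limma adjusted p = 0.0126). In clone 2 it stood at 54.4% of the WT mean (log2 difference -0.67, adjusted p = 0.0394). Clone 2 was below clone 1 by a log2 difference of -1.63 (SE 0.201, adjusted p = 0.000822). Dtx1 is the only member on the chromosome of Lhx5, and their annotated transcription start sites lie 280.2 kb apart. The clone 1 call was lost without clone 1 replicate 2 (adjusted p = 0.0533). The clone 2 call was lost without either clone 2 library (0.0678 without replicate 1, 0.316 without replicate 2), without WT replicate 1, 3 or 4 (0.0528, 0.0798 and 0.0545), with no filter on low values (0.0867) and without trend and robust moderation (0.0622).

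The clones were also compared with each other, which tests whether they differ in their distance from the same WT libraries. Of the 10 members, 4 passed: Hes1 and Hes3 were higher in clone 2, and Dll3 and Dtx1 were lower. This count lies near the background, since 39.9% of all genes tested passed (24.9% higher, 15.0% lower in clone 2), and it is not a result particular to Notch genes. The median size of the difference was 0.29 for the members and 0.21 for all genes tested. Each of these 4 calls held in all 14 alternatives tried. Notch1, at -0.25 between the clones (adjusted p = 0.0628), passed after rescaling by the median ratio (-0.31, adjusted p = 0.0126), after quantile normalization (-0.30, adjusted p = 0.0149) and without clone 1 replicate 2 (-0.41, adjusted p = 0.00742). Without clone 1 replicate 2, Notch3 passed as well (-0.21, adjusted p = 0.0243). Hes5 passed without clone 2 replicate 2 (-0.86, adjusted p = 0.0205).

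Counts of members whose libraries did not overlap stood near those of other genes. Against WT, this held for 6 of 10 members in clone 1, beside 41.3% of all genes tested, and for 6 of 10 in clone 2, beside 47.4%. Between the clones it held for 7 of 10, beside 67.9%. For the 4 null against the 4 WT libraries it held for Jag1 alone among the members, beside 4.26% of all genes tested.

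With both clones in 1 null group of 4 libraries, 0 of 10 members passed limma's test, beside 0.0551% of all genes tested. An unadjusted p under 0.05 was found for 688 of all 14521 genes tested and for 2 of the 10 members. These were Jag1, with a log2 difference of -0.32 (SE 0.070, unadjusted p = 0.00154, adjusted p = 0.361), and Hes1 (unadjusted p = 0.0293). For Hes3 the null mean was 12.1 ± 8.67 FPKM (n = 4) and the WT mean 12.1 ± 2.29 FPKM (n = 4), while the clone means stood at 4.91 and 19.3 FPKM. In the authors' deposited table, Jag1 has a null to WT fold of 0.804 with a p-value listed as 0, and after adjustment over the 28133 genes with reads it is the only member that passes, beside 0.778% of those genes. The authors' deposited p-value was 0.00991 for Hes5, at a fold of 1.41, and 0.0494 for Hes1, at a fold of 0.870, and neither passed once adjusted.

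Promoter sequences are shown for Dll3 and Dtx1, which shared an order of groups, and for Hes5, the direct Notch target among the members. RefSeq (GRCm38.p6) gave 9 promoters for 8 of the 10 members, each from 250 bases before to 50 bases after the start, and Hes1 and Hes3 had no entry. Both strands were searched for the RBPJ core TGGGAA, its longer form GTGGGAA, which contains the core, the N box CACNAG bound by Hes repressors, and the E box CANNTG bound by proneural factors. In the sequences below, every match of the RBPJ core, the N box or the E box is in capitals, and the extra base of the longer form is not. The 250 bases before each start are printed 5′ to 3′ on the gene's strand. They are chr7:28301786-28302035 on the minus strand for Dll3, chr5:120711670-120711919 on the minus strand for Dtx1 and chr4:154960673-154960922 on the plus strand for Hes5.
Dll3: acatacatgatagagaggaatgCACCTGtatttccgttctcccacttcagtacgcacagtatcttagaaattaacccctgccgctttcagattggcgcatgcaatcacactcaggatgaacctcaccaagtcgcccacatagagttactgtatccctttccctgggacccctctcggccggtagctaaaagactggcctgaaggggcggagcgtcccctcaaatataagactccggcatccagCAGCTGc
Dtx1: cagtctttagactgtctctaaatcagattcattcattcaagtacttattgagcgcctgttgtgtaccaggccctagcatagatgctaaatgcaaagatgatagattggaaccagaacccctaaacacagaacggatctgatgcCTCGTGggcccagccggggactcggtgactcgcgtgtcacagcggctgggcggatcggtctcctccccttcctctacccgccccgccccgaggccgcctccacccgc
Hes5: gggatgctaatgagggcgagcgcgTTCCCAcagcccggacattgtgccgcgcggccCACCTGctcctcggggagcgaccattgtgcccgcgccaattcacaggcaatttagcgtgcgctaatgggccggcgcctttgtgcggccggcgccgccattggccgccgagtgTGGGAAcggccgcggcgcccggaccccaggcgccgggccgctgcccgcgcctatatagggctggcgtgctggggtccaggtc
Hes5 holds the RBPJ core on both strands, beginning at -226 and at -82 from the start, each within the longer form, and an E box at -194. Dll3 holds E boxes at -228 and -7, and Dtx1 holds an N box at -107. Of the 9 member promoters, 1 held the RBPJ core, 5 an N box and 5 an E box. Over all 32851 RefSeq promoters of this length, 25.6% held the core, 6.38% the longer form, 42.5% an N box and 72.3% an E box, so the motifs other than the longer form are common. A match is a run of letters and was not tested as a binding site.

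**Figure D3:**
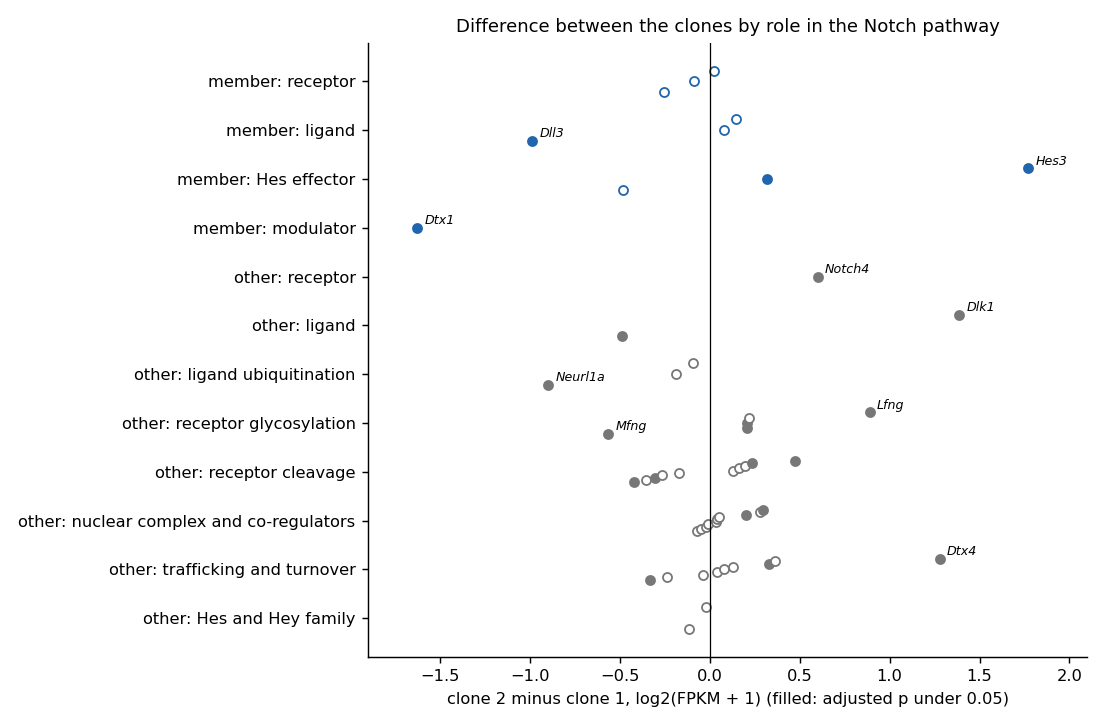
Log2 difference between clone 2 and clone 1 on log2(FPKM + 1) for the 10 members (blue) and the 42 other Notch pathway genes tested (grey), by role, filled where the limma adjusted p was under 0.05. Hes3, Dlk1 and Dtx4 lie farthest to the right and Dtx1, Dll3 and Neurl1a farthest to the left, while the member receptors lie near 0.

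Around the members, 50 other Notch pathway genes were listed by role, and 42 had a mean of at least 1 FPKM and were tested. Against WT, 1 was higher and 5 were lower in clone 1, and 2 were higher and 2 were lower in clone 2, beside shares of 15.6% and 14.0% over all genes. Between the clones 11 were higher and 6 lower in clone 2, beside 39.9% of all genes. In null against WT none passed limma's test, and 1 of the 42 had an unadjusted p under 0.05, beside 688 of all 14521 genes tested. The median log2 difference was -0.08 in clone 1 and -0.01 in clone 2.

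Among receptors and ligands outside the members, Notch4, at 1.5 FPKM in WT and 0.760 in clone 1, fell by 0.51 in clone 1 (limma adjusted p = 0.0295). Dlk1, a Delta-like protein outside the canonical ligands, was at 3.01 FPKM in WT, 1.37 in clone 1 and 5.18 in clone 2. It fell by 0.75 in clone 1 (adjusted p = 0.0229) and rose by 0.64 in clone 2 (adjusted p = 0.0407). Jag2 was lower in clone 2 than in clone 1 (-0.49, adjusted p = 0.0119).

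Among genes that act on the ligands, Neurl1a, a ubiquitin ligase for Notch ligands, was at 6.44 FPKM in WT, 9.02 in clone 1 and 4.37 in clone 2. Its log2 difference from WT was 0.43 in clone 1 (limma adjusted p = 0.0194) and -0.47 in clone 2 (adjusted p = 0.0185), both past the threshold, with the same order of groups as Dll3 and Dtx1. Among the 5 glycosylation genes tested, the fringe sugar transferase genes Lfng and Mfng each passed against WT in 1 clone. Lfng, at 49.3 FPKM in WT and 30.5 in clone 1, fell by 0.67 in clone 1 (adjusted p = 0.00474), whereas Mfng, at 7.05 FPKM in WT and 5.39 in clone 2, fell by 0.33 in clone 2 (adjusted p = 0.0379). Between the clones Lfng was 0.89 higher (adjusted p = 0.000643) and Poglut1 0.21 higher in clone 2, and the difference of Mfng was -0.56 (adjusted p = 0.0030).

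Of 10 receptor cleavage genes tested, Adam10, the protease of the ligand-triggered cut, fell by 0.36 in clone 1 (limma adjusted p = 0.0128), from 25.2 to 19.4 FPKM. Between the clones Adam10 (0.47) and the gamma-secretase subunit Ncstn (0.24) were higher in clone 2, and Furin, which processes the receptor precursor, was lower (-0.42). The Ncstn call was lost after rescaling by the median ratio. Of 10 nuclear genes tested, the co-activator Snw1 fell by 0.17 in clone 1 (adjusted p = 0.0325, lost after the same rescaling), and Snw1 (0.29) was higher in clone 2 than in clone 1. Maml1 passed narrowly between the clones (0.20, adjusted p = 0.0495), and its call was lost in 10 of 14 alternatives, among them the same rescaling and leaving out any 1 WT library. Rbpj itself, named after its values were seen, was at 32.4 to 33.1 FPKM in WT and 28.7 to 31.5 FPKM in the null libraries and did not pass.

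Among 9 trafficking and turnover genes tested, 3 further Deltex genes passed in at least 1 comparison. Dtx4 was at 13.8 FPKM in WT, 9.80 in clone 1 and 25.5 in clone 2, the reverse order of Dtx1. It rose by 0.83 in clone 2 (limma adjusted p = 0.00903) and was 1.28 higher in clone 2 than in clone 1 (adjusted p = 0.000635). Between the clones Dtx3l was 0.33 higher in clone 2, and Dtx3 differed by -0.33. Of the 10 calls against WT in these named genes, that of Lfng held when any single library was left out. Adam10 lost its call without clone 1 replicate 2 and Dtx4 without clone 2 replicate 2, and the other 7 (Notch4, Snw1, Mfng, and Dlk1 and Neurl1a in both clones) were lost without at least 2 libraries, each left out in turn. Of the remaining Hes and Hey genes, 2 of 6 were tested and none passed, with Hes6 at 14.0 FPKM in WT, 14.8 in clone 1 and 14.6 in clone 2.

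Marker genes of neighbouring cell states moved with several members. Summed FPKM of 7 midbrain-hindbrain genes was 152.7 to 187.2 in WT, 100.8 to 111.5 in clone 1 and 287.9 to 319.2 in clone 2, the same order of groups as Hes3, and all 7 were higher in clone 2 than in clone 1. Wnt1 was the largest part of this sum, at 98.1, 47.2 and 171 FPKM in WT, clone 1 and clone 2. En1 stood at 32.3, 19.5 and 68.2 FPKM. Against WT, 2 of the 7, Wnt1 and En1, passed as lower in clone 1, and 5 passed as higher in clone 2. The clone 1 libraries overlapped WT for En2, Fgf8, Pax5 and Pax8.

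Summed FPKM of 9 pluripotent or epiblast genes was 99.96 to 127.0 in WT, 174.0 to 194.0 in clone 1 and 74.5 to 84.8 in clone 2, the same order as Dll3 and Dtx1. This sum is mostly Dnmt3b and Pou5f1 (75.3 and 22.6 FPKM in WT). All 6 of these genes that were tested were higher in clone 1, and 2, Dnmt3b and Nanog, were lower in clone 2. The 3 at too low a level for a test did not follow that order: in clone 1 Esrrb stood at 43.1%, Klf4 at 58.4% and Zfp42 at 80.5% of the WT mean, and in clone 2 at 101%, 137% and 40.0%. For example, Nanog was at 4.39 FPKM in WT, 8.09 in clone 1 and 2.02 in clone 2. Summed FPKM of 7 proneural factors was 6.97 to 12.7 in WT, 16.6 to 19.6 in clone 1 and 5.35 to 5.74 in clone 2, also in that order. Within it Neurog2 had means of 3.98 FPKM in WT, 11.2 in clone 1 and 0.901 in clone 2. The part of these cell states in the changes of Hes3, Dll3 and Dtx1 was not tested.

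**Figure D4:**
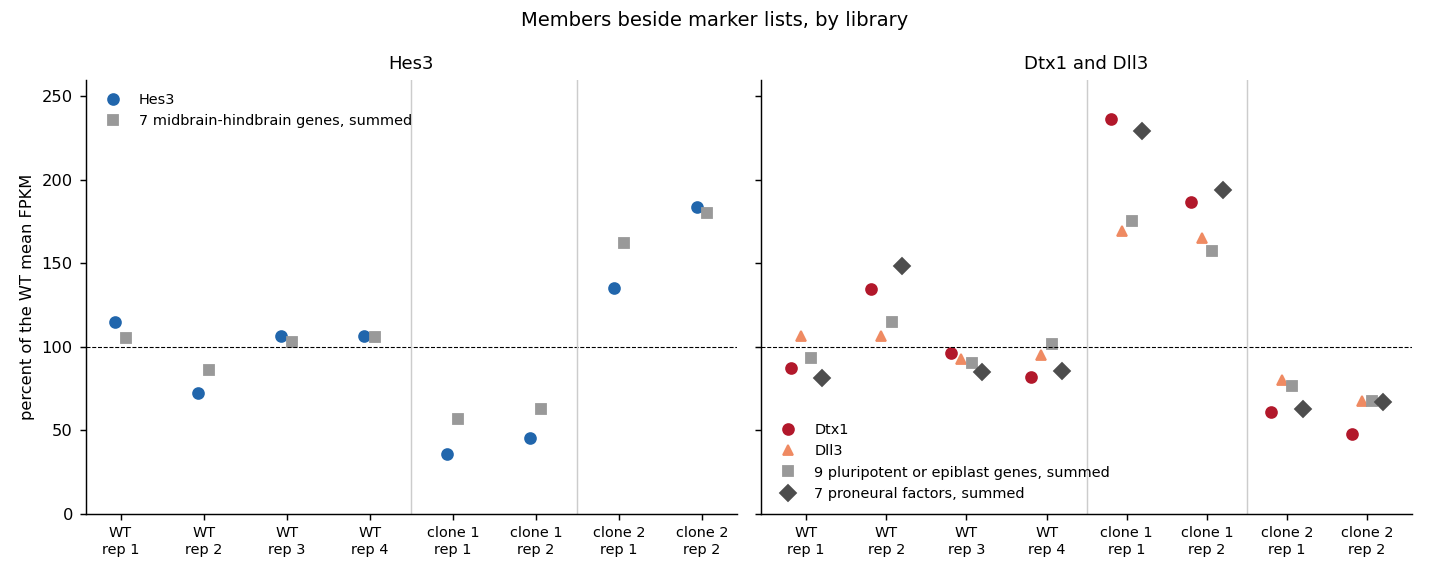
Level in each library as percent of the WT mean FPKM, for Hes3 beside the sum of 7 midbrain-hindbrain genes (left) and for Dtx1 and Dll3 beside the sums of 9 pluripotent or epiblast genes and 7 proneural factors (right). Hes3 and its marker sum lie below WT in clone 1 and above the WT mean in clone 2, and the genes of the right panel lie above WT in clone 1 and below it in clone 2.

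As a description, genes were taken from the 3 with the highest Pearson correlation of log2(FPKM + 1) to each member over the 8 libraries, among genes with a mean of at least 5 FPKM. The points share libraries and group differences. For Hes3 they were Marcksl1, Mab21l2 and Tal2, each at 0.993, of which Tal2 stood at 14.3 FPKM in WT, 4.60 in clone 1 and 24.4 in clone 2. For Dtx1 they were F11r (0.995), Tulp3 (0.993) and Svop (0.993), and for Dll3 they were Cbx7 (0.982), Dnmt3b (0.981) and Zscan10 (0.979). The genes closest to Jag1 were H13 (0.965), Tmem161a (0.958) and Mettl21a (0.952), those closest to Hes1 were Gm13251 (0.980), Eid1 (0.970) and Paip1 (0.968), and those closest to Hes5 were Syne4 (0.954) and Olfm2 (0.936). For Dll1 they were Tbrg4 (0.981), Tnks1bp1 (0.964) and Ercc2 (0.961). For the receptors they were Yeats2 (0.984), Fryl (0.980) and Mapkbp1 (0.977) with Notch1, G2e3 (0.946) and Naa20 (0.937) with Notch2, and Setd5 (0.993), Lmtk2 (0.990) and Eml4 (0.980) with Notch3.

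The members lie on 7 chromosomes of the GRCm38 build, in GENCODE M21. On chromosome 2 lie Notch1 (26457903 to 26516663) and Jag1 (137081456 to 137116644), on chromosome 4 Hes3 (152285972 to 152291662) and Hes5 (154960923 to 154962371), and on chromosome 17 Dll1 (15367354 to 15376872) and Notch3 (32120820 to 32166852). Notch2 lies on chromosome 3 (98013527 to 98150361), Dtx1 on chromosome 5 (120680202 to 120711927), Dll3 on chromosome 7 (28293553 to 28302238) and Hes1 on chromosome 16 (30064384 to 30067796). Overlaps were looked up among annotated genes with an entry in the deposited table, and none of these overlaps Dll3, Jag1, Hes1, Hes3 or Dtx1. Notch2 is overlapped on its own strand by Gm42819 and Gm42820, at up to 0.053 and 0.18 FPKM. Dll1 is overlapped on the opposite strand by A930024N18Rik, at 1.75 to 2.28 FPKM, and Hes5 by Gm20421, at 0.181 to 0.683 FPKM. Also on the opposite strand, 0610009E02Rik, at 0.34 to 0.79 FPKM, overlaps Notch1, and Gm17276, at 0.024 to 0.16 FPKM, overlaps Notch3. Since no source used here says that reads were counted by strand, reads of these opposite-strand pairs cannot be told apart.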

How the data were processed

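The FPKM values of the 8 libraries were computed by the authors and deposited in 1 table, per the file headers. From the same table come the authors' mean read signal per genotype, whose scaling is not given, the authors' null to WT fold (a ratio), and the authors' p-value, whose test is not named. The submitters' processing notes list TopHat2, Cufflinks, DESeq2, SAMtools and FastQC without versions or roles, and the builds GRCm38 and mm10. WT columns were matched to samples by title, and null columns to their clone by name.

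From the deposited FPKM, genes averaging at least 1 FPKM over the 8 libraries (14521) were tested as log2(FPKM + 1) with limma 3.58.1 in R 4.3.3, with trend and robust moderation and Benjamini-Hochberg adjustment at 0.05. Clone comparisons came from 1 fit of 3 groups, and null against WT from a fit of 2 groups. The procedure was tested on simulated data. FPKM sums per library ran from 518491 to 528726, and read depth per library is unknown. Members, gene lists and tests were chosen with earlier results of these data known. Of other pathway genes, up to 3 that passed were named per role by the smallest adjusted p, or the 1 with the highest mean where none passed, and up to 2 per marker list, named only beside a member's result. Alternatives covered the pseudocount (0.1), the filter, 2 normalizations, moderation, the authors' p-values, correlated libraries of a line, a replicate block and leaving out each library. Protein sequences were not used here, and a few genes that the naming rules select are not reported here. Replicate numbers did not pair the libraries and served as names.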

Additional observations from a re-analysis of the deposited data

Results flagged for a closer look

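Of the members and the other Notch pathway genes named above, 19 differed between the clones by limma's test of that difference itself. Among the members these were Hes3 (clone 2 minus clone 1, log2 difference 1.77), Hes1 (0.32), Dll3 (-0.99) and Dtx1 (-1.63). Among the other pathway genes, Dlk1 (1.39), Dtx4 (1.28), Lfng (0.89), Notch4 (0.60), Adam10 (0.47), Dtx3l (0.33), Snw1 (0.29), Ncstn (0.24), Poglut1 (0.21) and Maml1 (0.20) were higher in clone 2. Of these, the Maml1 call was lost in 10 of 14 alternatives, and it and the Ncstn call were lost after rescaling by the median ratio. Neurl1a (-0.90), Mfng (-0.56), Jag2 (-0.49), Furin (-0.42) and Dtx3 (-0.33) were lower in clone 2. Most of the other pathway genes were named because they passed, so the 19 cannot be set against a share of all genes tested. Counted without that choice, 2 of the 10 members were higher and 2 were lower in clone 2. Of the 42 other pathway genes tested, 11 were higher and 6 were lower. Over all genes tested, 39.9% differed between the clones, and the counts made without that choice lie near this share.

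In WT, 1 library lay apart from the other 3 for 2 of the 26 genes looked at. For a single gene, chance alone gives such a library about 1 time in 20, so 2 of 26 is near the number that chance gives. Snw1 was at 53.9 FPKM in WT replicate 3 and at 56.6 FPKM in each of the other 3, and Maml1 was at 15.2 FPKM in WT replicate 4 and at 14.9 FPKM in each of the other 3.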

How the results depend on the processing

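Of 930 recomputed values of single genes, 787 kept their direction and side of the threshold, 106 lost and 8 gained a call, and 29 changed sign. The last were all of members that had not passed. With 1 library left out, clone 1 against WT ranged from -0.16 to 0.078 for Notch3, -0.048 to 0.26 for Notch1, -0.23 to 0.038 for Notch2 and -0.026 to 0.043 for Dll1. Notch3 was 0.020 rescaled by median ratio and 0.0079 quantile normalized, and Dll1 was -0.047 with the replicate block. Clone 2 against WT ranged from -0.19 to 0.038 for Notch2 and -0.17 to 0.58 for Hes5. Between the clones the ranges were -0.11 to 0.16 for Notch2 (-0.038 rescaled, -0.021 quantile normalized), -0.21 to 0.028 for Notch3 and -0.024 to 0.18 for Jag1. In null against WT they were -0.12 to 0.037 for Notch1 (0.0010 from the authors' fold, 0.0054 rescaled, 0.0035 quantile normalized), -0.62 to 0.090 for Hes3 (0.00055 from the authors' fold), -0.026 to 0.34 for Dll3 and -0.18 to 0.46 for Dtx1.

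In clone 1 against WT, 5 members and 2266 genes passed. Leaving out 1 library gave 2 to 6 members and 438 to 3091 genes, and no filter gave 1506 genes. The fewest came without clone 1 replicate 2, where Dll3 and Hes1 were the members that passed, and 1077, 1029 and 1008 genes passed without WT replicates 1, 3 and 4. In clone 2 against WT, 3 members and 2036 genes passed. Leaving out 1 library gave 0 to 3 members and 172 to 2425 genes, no filter gave 0 members and 1160 genes, and limma without trend or robust moderation gave 1 member. The fewest genes came without clone 2 replicate 2, followed by 1292, 1078 and 759 without WT replicates 2, 3 and 4. No member passed without clone 2 replicate 2 or WT replicate 1, 3 or 4, and 1 passed without clone 2 replicate 1 or WT replicate 2. Between the clones 4 members and 5794 genes passed, with 3099 (without clone 2 replicate 2) to 5904 genes when 1 library was left out. In null against WT 0 members and 8 genes passed, beside 1 member and 219 genes by the authors' p-values, 3 genes with correlated libraries of a line, 4 rescaled and 3 (without WT replicate 1) to 8 with 1 library left out. The share of higher calls moved from 26.7% to 50.5% in clone 1 and from 62.4% to 48.9% between the clones after rescaling. The cause was not tested.

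Libraries with the same replicate number did not deviate together (correlations -0.0853 to 0.0223). With the replicate block, 0 members passed in clone 1, 0 in clone 2, 4 between the clones and 0 in null against WT, and 36, 45, 2995 and 1 genes. The added 1 shrinks the fold of Dll3 and Dtx1, the members at the lowest levels.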

Other observations

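WT replicate 2 differed from the other 3 WT libraries in several genes of the Notch circuit: Hes3 was at 8.74 FPKM, beside 12.9 to 13.9, Dtx1 at 6.51 FPKM, beside 3.97 to 4.64, Hes5 at 18.1 FPKM, beside 12.3 to 14.7, and the proneural gene Neurog2 at 6.91 FPKM, beside 2.71 to 3.25. In the same library the midbrain-hindbrain genes Wnt1, at 85.0 FPKM, and En1, at 25.6 FPKM, were lower than in the other WT libraries, which had 101.1 to 103.9 and 32.9 to 35.9 FPKM. Notch1 was also highest there and Notch2 and Jag1 lowest, and Dll3, Dll1, Notch3 and Hes1 lay within the range of the other WT libraries.

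The authors' mean WT reads per FPKM and kilobase of exon differed among the members. Relative to the median of 14335 genes, this ratio was lowest for Hes5 at 0.694 and highest for Hes3 at 1.97, and 95% of genes lay below Hes3. The order of levels between these genes therefore depends on the length by which reads were scaled.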
